A study of Mus musculus with 18 samples.

Results

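The Krüppel-like factors are a family of zinc finger transcription factors, and 10 of their genes were followed here in mouse fibroblasts treated with interferon (IFN) and with cycloheximide (CHX), an inhibitor of translation. The members were Klf2, Klf3, Klf4, Klf5, Klf6, Klf7, Klf9, Klf10, Klf13 and Klf15, out of 18193 genes that the arrays represent by at least 1 probe set annotated to a single gene symbol. They were chosen by name, and every probe set whose annotation gives only a member's symbol was used. Of their 34 probe sets 31 were bright enough to be tested, and these represented 9 of the 10 genes. Klf15 had a single probe set, which read between 5.7 and 6.3 on all 18 arrays and was not tested.

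Family members share a block of zinc fingers at the carboxy terminus, which binds GC-rich DNA of the GC box and CACCC box type, and differ in the regions that recruit coactivators or corepressors. Klf2, Klf4, Klf5, Klf6 and Klf7 are mostly described as activators, Klf3 as a repressor that recruits the corepressor CtBP, and Klf9, Klf10 and Klf13 as factors that bind the corepressor Sin3. Several of them, such as Klf4, Klf6 and Klf10, are known as genes with short-lived transcripts that respond rapidly to serum, growth factors and TGFβ.

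The cells were NIH-3T3, an established line of mouse embryonic fibroblasts. Newly transcribed RNA, tagged with 500 µM 4-thiouridine (4sU) between 30 and 60 min of IFN treatment, was hybridised to 18 Affymetrix mouse genome arrays. The 6 treatments had 3 biological replicates each: mock, IFNα and IFNγ, at 100 U/ml for 60 min, without CHX or with CHX at 50 µg/ml added 15 min before IFN, and cells without CHX received its solvent DMSO. All groups carried the 4sU label, all came from 1 line, and newly transcribed RNA of the pulse was measured, not total RNA or protein.

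The values are linear intensities, and every change below is a difference of mean log2 intensities with its standard error (SE). A change was called at a Benjamini-Hochberg adjusted p under 0.01 over 27773 probe sets in limma, and a gene was represented by its brightest probe set. Array medians lay between 9.6 and 10.8, and arrays of the same treatment correlated at 0.959 to 0.995 over the probe sets tested. All 10 fibroblast markers exceeded an intensity of 100, and their summed intensity lay between 46042 and 55028 on arrays without CHX and between 53041 and 65067 with CHX. In contrast, none of 4 leukocyte and 5 endothelial markers on the arrays was bright enough to be tested and no epithelial marker exceeded 20. The treatments acted on their known targets, with Irf1 higher by 3.95 after IFNα and 5.61 after IFNγ, and the NF-κB target Tnfaip3 higher by 3.40 after CHX, all on the log2 scale and all called. Arrays of the same replicate number deviated together in the comparisons of CHX with its control, so calls from a fit with the replicate number as a block are given beside those results.

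The members lie on 10 different chromosomes of the mouse assembly GRCm38.p6. Klf2 lies at chr8:72319062-72321654, Klf3 at chr5:64803521-64832901, Klf4 at chr4:55527137-55532475, Klf5 at chr14:99298691-99313412 and Klf6 at chr13:5861489-5870393. Klf7 lies at chr1:64029448-64122345, Klf9 at chr19:23141226-23168129, Klf10 at chr15:38291464-38300711, Klf13 at chr7:63886351-63938915 and Klf15 at chr6:90461043-90491803. RefSeq promoter windows, from 250 bases before to 50 bases after a transcription start, were at hand for 8 members, all but Klf5 and Klf10. The 250 bases before the start are printed below for the genes with the clearest rise and fall after CHX, Klf6 at chr13:5861239-5861488 (plus strand) and Klf13 at chr7:63938916-63939165 (minus strand), and for Klf2 at chr8:72318812-72319061 (plus strand), which rose with CHX once replicate numbers were taken into account. Each reads 5′ to 3′ along the gene, ends at the base before the start, and has in capitals every match to the GC box GGGCGG or the CACCC box CACCC on either strand, the 2 motifs to which the family itself binds.

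Klf6: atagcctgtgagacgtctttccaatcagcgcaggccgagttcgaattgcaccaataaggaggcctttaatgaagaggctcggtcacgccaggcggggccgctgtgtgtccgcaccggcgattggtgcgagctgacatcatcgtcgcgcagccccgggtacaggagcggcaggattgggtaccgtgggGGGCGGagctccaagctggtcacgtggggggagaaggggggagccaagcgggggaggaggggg
Klf2: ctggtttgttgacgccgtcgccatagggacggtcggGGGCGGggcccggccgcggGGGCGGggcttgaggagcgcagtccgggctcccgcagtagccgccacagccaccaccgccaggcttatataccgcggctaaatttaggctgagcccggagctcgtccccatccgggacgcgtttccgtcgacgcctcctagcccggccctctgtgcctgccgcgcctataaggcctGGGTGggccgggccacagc
Klf13: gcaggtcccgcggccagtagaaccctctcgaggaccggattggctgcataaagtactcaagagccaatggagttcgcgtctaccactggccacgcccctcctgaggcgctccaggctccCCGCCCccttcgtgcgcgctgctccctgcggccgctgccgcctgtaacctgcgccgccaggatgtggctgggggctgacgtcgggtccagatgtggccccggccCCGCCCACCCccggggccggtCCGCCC

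A GC box was found in the windows of 7 of the 8 members, against 35.7% of all 32851 windows, and a CACCC box in 6 of 8, against 57.5%. The windows were rich in G and C, from 58.3% in Klf7 to 76.7% in Klf3. Klf6 had 1 GC box starting 63 bases before the start and no CACCC box, Klf2 had 2 GC boxes and 1 CACCC box, and Klf13 had 3 GC boxes and 1 CACCC box, the last of them overlapping a GC box. Motifs that overlap in this way share bases and are not independent matches. The ISRE core GAAANNGAA was found in no member window (8.56% of all windows), nor was the NF-kB site (8.46%). The CRE TGACGTCA (1.79%), the TATA box TATAAA (13.6%) and the CArG box (1.63%) were likewise absent from these windows, the AP-1 site TGANTCA was found in Klf9 alone (7.81%), the MEF2 site in Klf2 alone (0.557%) and the E-box CACGTG in Klf4, Klf6 and Klf15 (7.15%). A match describes the letters of the window and is not evidence of binding.

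Without the replicate block, all but 1 of the calls of individual member probe sets were made for CHX, and Klf6 rose most clearly. With CHX alone, Klf6 and Klf10 rose among the 9 genes and none fell by the test of the brightest probe sets, beside 3.92% of all probe sets that rose and 7.02% that fell (1088 and 1950, or 1216 and 1198 with each array centred on its median). With the replicate block, Klf2 also rose and Klf13 fell, giving 3 rises and 1 fall, beside 6.55% and 10.4% of all probe sets. Over the 31 probe sets 7 rose and 1 fell without the block, 4 of the 7 being probe sets of Klf6. With the block 8 rose and 3 fell. The median change of the 9 genes was 0.42, beside 0.04 over all probe sets tested, with 5 genes above 0 and 4 below. The 3 comparisons of CHX with its control, in mock, IFNα and IFNγ cells, use separate arrays. They are still not fully independent, since the fit shares a single estimate of the spread and same-numbered arrays tended to deviate together.

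**Figure D1:**
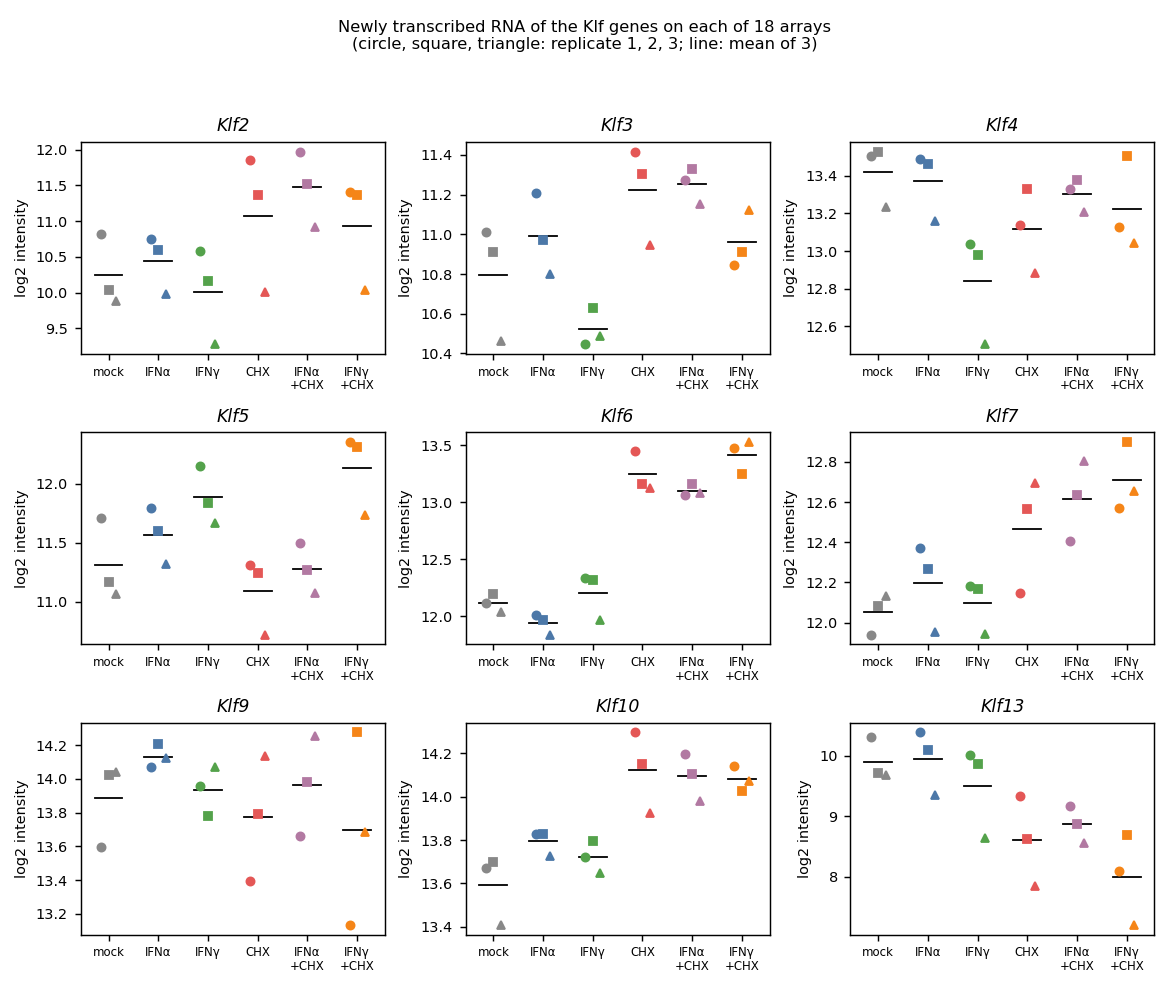
Each panel plots 1 gene by its brightest probe set, with the 6 treatments on the horizontal axis and log2 intensity on the vertical axis (ranges differ between panels). Each symbol is 1 array, with circle, square and triangle for replicates 1, 2 and 3, and the line is the mean of 3. Klf6 and Klf10 lie higher on every CHX array than on every array without CHX, and Klf13 was lower on average with CHX.

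Klf6, a widely expressed activator and tumour suppressor that responds to serum and tissue injury, was the only member whose brightest probe set was called in all 3 comparisons with CHX without the block. Its intensities were 4445, 4690.4 and 4212 in mock cells and 11148, 9146 and 8937 with CHX. They were 4123, 4005 and 3662 after IFNα and 8544, 9119.7 and 8682 after IFNα with CHX, and 5152, 5106 and 4009 after IFNγ and 11384, 9704 and 11798 after IFNγ with CHX. The lowest array with CHX stood well above the highest without it, whichever IFN was given. The rise was 1.13 on the log2 scale with CHX alone (SE 0.12, 2.18-fold, adjusted p = 1.84e-05 by limma), 1.16 in IFNα cells (adjusted p = 1.08e-05) and 1.21 in IFNγ cells (adjusted p = 7.76e-06). It was called without any single array, with adjusted p values up to 1.80e-04 in the comparison with mock, and under each of the 8 other alternatives, with values up to 0.00610.

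The other 4 probe sets of Klf6 moved the same way. The one with the largest change read 1351, 959.6 and 1142 in mock cells and 4977.5, 4313 and 6352.5 with CHX, a rise of 2.18 (SE 0.26, 4.52-fold). Of the rest, 1 rose by 1.26 and 1 rose by 1.70, whereas the last, higher by 1.27 with an SE of 0.51, was not called (adjusted p = 0.103) although its groups did not overlap. The same 4 probe sets were called in IFNα and in IFNγ cells, so the rise over called probe sets ranged from 1.13 to 2.44. With only the arrays compared, the probe set with the rise of 1.70 was not called in mock (adjusted p = 0.0197) or IFNγ cells (0.0184), and the one with the rise of 2.18 was not called in IFNγ cells (0.0247). Size therefore differed between probe sets of the gene, while direction did not.

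**Figure D2:**
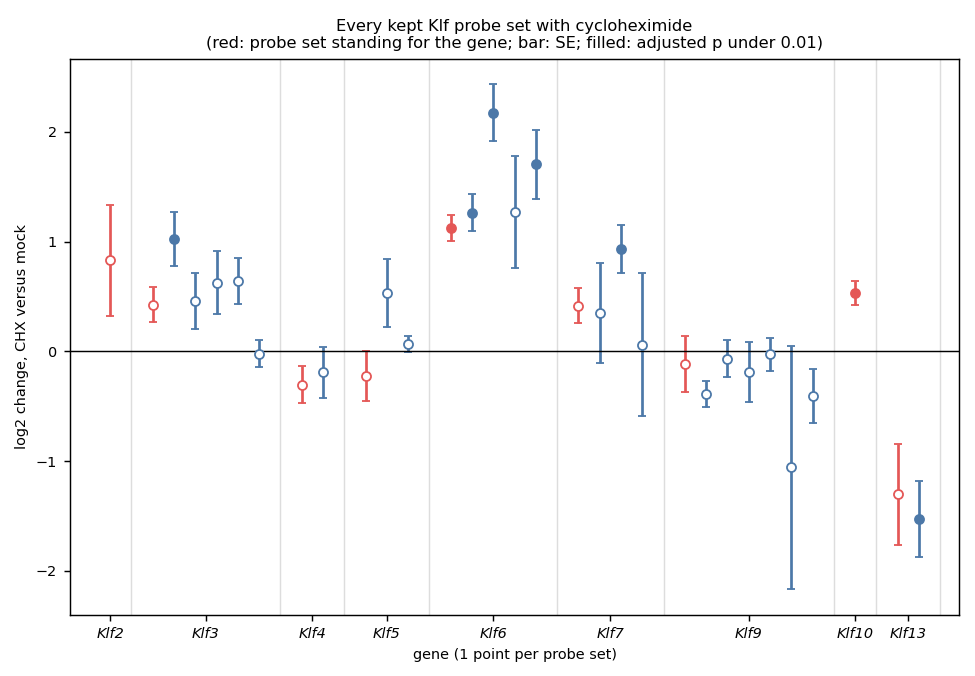
Each point is 1 tested probe set, grouped by gene on the horizontal axis, and the vertical axis gives the log2 change of CHX against mock with its SE as the bar. Red marks the probe set that represents the gene, and filled points have an adjusted p under 0.01. All 5 Klf6 probe sets lie at 1.13 or above, both Klf13 probe sets at -1.30 or below, and the 7 Klf9 probe sets below 0.

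Klf7, a close relative of Klf6 known from the developing nervous system, read 3931, 4345 and 4490 in mock cells and 4531, 6052 and 6632 with CHX. The groups were adjacent but did not overlap, and the difference of 0.42 (SE 0.16) was not called (adjusted p = 0.0853). In IFNα cells the difference was 0.42 (adjusted p = 0.0835). After IFNγ the arrays read 4650, 4594 and 3935, against 6077, 7632 and 6447 with CHX. That difference of 0.61 (SE 0.16) had an adjusted p of 0.0119. It was called with the replicate block (adjusted p = 0.00875), with median centring (0.00137) and without CHX replicate 1 (0.00528). A dimmer probe set of Klf7 rose with CHX alone from 406, 400 and 531 to 764, 699 and 1126, by 0.93 (SE 0.22, adjusted p = 0.00789 by limma), a call that 12 of the 18 fits with an array left out did not make (adjusted p up to 0.0400) and that was lost with no filter and with only the arrays compared (0.0147 and 0.0464). The 2 remaining probe sets of Klf7 differed with CHX alone by 0.35 (SE 0.46) and 0.06 (SE 0.65), and neither was called.

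Klf2, an activator known for its induction by blood flow in endothelium and for keeping T cells quiescent, differed strongly between replicates. Mock arrays read 1805, 1053 and 945, and CHX arrays 3714, 2637 and 1032. After IFNα the values were 1719, 1551 and 1009 without CHX and 4014, 2945.5 and 1943 with it, and after IFNγ they were 1531, 1148 and 622 without CHX and 2719.9, 2642 and 1049.7 with it. Replicate 3 was lowest in all 6 treatments, as it was for Klf4, Klf5 and Klf13, while 3.49% of all probe sets tested shared that order. The change with CHX was 0.83 alone, 1.03 in IFNα cells and 0.93 in IFNγ cells, each with an SE of 0.51, and none was called (adjusted p = 0.277, 0.189 and 0.208).

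Compared within replicate numbers, Klf2 was higher with CHX in each of the 9 pairs of arrays. The differences were 1.04, 1.32 and 0.13 in mock cells, 1.22, 0.92 and 0.95 in IFNα cells, and 0.83, 1.20 and 0.76 in IFNγ cells. With the replicate block the SE became 0.21 and Klf2 rose in all 3 comparisons, with adjusted p values of 0.00944, 0.00238 and 0.00419 by limma. In mock and in IFNγ cells the replicate 3 array with CHX still lay within the range of the arrays without it.

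Klf4 and Klf5, activators known from pluripotent cells and from epithelium and smooth muscle, showed no called change with CHX alone. Klf4 read 11631, 11799 and 9625 in mock cells and 9002, 10294 and 7562 with CHX, a difference of -0.30 with a 95% interval from -0.67 to 0.06. Klf5 read 3345, 2307 and 2141 in mock cells and 2545, 2421 and 1691 with CHX, a difference of -0.22 with an interval from -0.71 to 0.27. In IFNα cells the differences were -0.07 for Klf4 and -0.29 for Klf5. In IFNγ cells Klf4 was instead higher with CHX, by 0.38 (SE 0.17), a change called with the replicate block (SE 0.10, adjusted p = 0.00946 by limma) and not without it (adjusted p = 0.121). Klf5 was also higher there, by 0.25, and was called neither without the block nor with it (SE 0.10, adjusted p = 0.0861 by limma). Of the 8 alternatives other than leaving out an array, 1 called it (adjusted p = 0.00785).

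Klf3, the CtBP-binding repressor, was known by 6 tested probe sets. The brightest read 2062, 1927.5 and 1409 in mock cells and 2732.5, 2524 and 1974 with CHX, and the difference of 0.43 (SE 0.16) was not called (adjusted p = 0.0761). The mean of the 6 probe sets was called, at 0.53 (SE 0.10, adjusted p = 0.00247 by limma). The second brightest read 513, 368.5 and 399.7 in mock cells and 1019, 636 and 977 with CHX and rose by 1.02 (SE 0.24, adjusted p = 0.00875 by limma). That call was made in 6 of the 18 fits without an array, with adjusted p values up to 0.0407, and was lost with no filter and with only the arrays compared (0.0168 and 0.0403). The probe sets of Klf3 differed from -0.02 to 1.02 with CHX alone, the dimmest of them, between intensities of 25.2 and 37.9, showing the least difference.

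Klf10, induced early by TGFβ and also known as TIEG, was measured by 1 bright probe set. It read 13040.4, 13295 and 10871 in mock cells and 20127, 18202.5 and 15565 with CHX. No CHX array fell into the mock range, and the rise was 0.53 (SE 0.11, 1.45-fold, adjusted p = 0.00308 by limma). After IFNα it read 14521, 14535 and 13570.3 without CHX and 18782, 17639.6 and 16181 with it, a difference of 0.30 (adjusted p = 0.0658). In IFNγ cells, at 13495, 14213 and 12830 without CHX and 18102, 16671 and 17234 with it, the difference of 0.36 had an adjusted p of 0.0261, and it was called with the replicate block (adjusted p = 0.00508). The call with CHX alone was lost without mock replicate 3, CHX replicate 1 or CHX replicate 2 (adjusted p up to 0.0173) and in a fit of the mock and CHX arrays by themselves (0.0659), and with median centring it stood just above the threshold (0.0103).

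Klf13, a Sin3-binding factor known from T cell gene regulation, went the other way. Its brighter probe set read 1266, 838 and 825 in mock cells and 644, 394 and 230.3 with CHX. The groups did not overlap, but the replicates spread widely, and the difference of -1.30 (SE 0.46) was not called (adjusted p = 0.0624). The values were 1337, 1089 and 654 after IFNα and 575, 470.2 and 377 after IFNα with CHX, and 1032, 931 and 398 after IFNγ and 273, 415 and 147 after IFNγ with CHX. These differences of -1.07 and -1.51 were not called either (adjusted p = 0.126 and 0.0279). Within replicate numbers all 9 differences were negative, from -0.79 to -1.92, and with the replicate block Klf13 fell in each comparison (SE 0.25, adjusted p = 0.00191, 0.00613 and 5.89e-04 by limma).

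The dimmer Klf13 probe set was called in each comparison without the block. It read 266, 159.8 and 177 in mock cells and 66.2, 65.8 and 72.5 with CHX, and fell by 1.53 on the log2 scale (SE 0.35, adjusted p = 0.00659 by limma). It fell by 1.51 in IFNα cells (adjusted p = 0.00673) and fell by 2.53 in IFNγ cells (adjusted p = 1.26e-04). In the last of these the CHX arrays read 21.3, 65.1 and 23.2, so replicate 2 stood apart from the others, and all 3 lay below the IFNγ arrays at 234, 159.3 and 167. Leaving out any array of either group in the comparison with mock took the adjusted p above 0.01, to 0.0345 at most, and 7 of the 18 fits with an array left out did so in IFNα cells, to 0.0330 at most. Other scalings also took the comparison with mock just past the threshold, to 0.0125 with quantile normalization and 0.0101 with median centring, with no filter both calls were lost (0.0142 and 0.0143), and with only the arrays compared those in IFNα and IFNγ cells were (0.0118 and 0.0230).

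**Figure D3:**
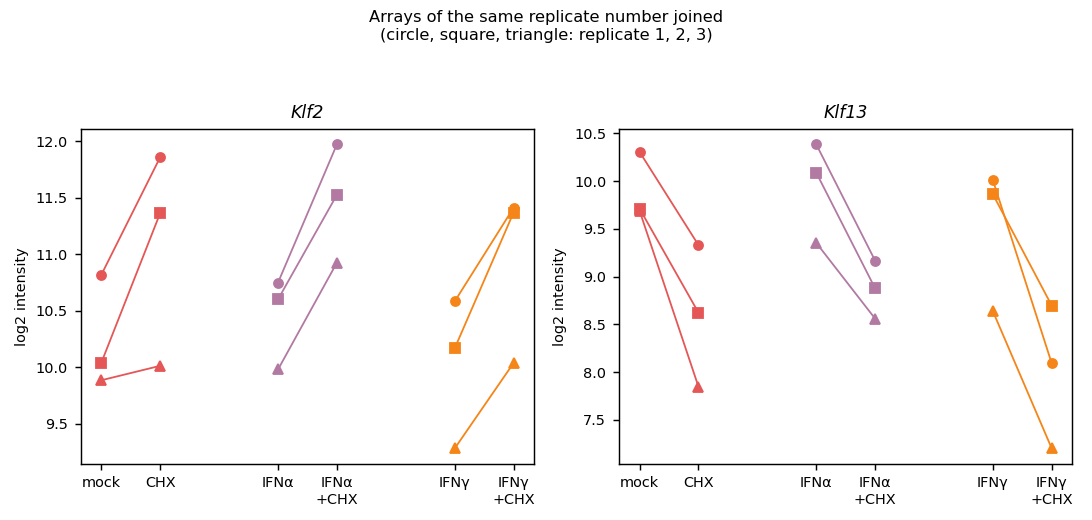
Log2 intensity (vertical axis) of Klf2 and Klf13 is plotted for each treatment without and with CHX, and lines join arrays of the same replicate number (circle, square and triangle for 1, 2 and 3). All 9 lines of Klf2 go up and all 9 of Klf13 go down, with the flattest Klf2 line, 0.13, in replicate 3 without IFN.

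Klf9, induced by thyroid hormone and glucocorticoids, was the member with the most tested probe sets, 7. The brightest read 12407, 16646 and 16829.6 in mock cells and 10778, 14167 and 17978 with CHX, so that the groups overlapped throughout. The difference of -0.11 had a 95% interval from -0.66 to 0.43, and no Klf9 probe set was called in any comparison without the replicate block. The second brightest read 7936, 7858 and 6589 in mock cells and 6271, 5649 and 5171 with CHX, a difference of -0.39 (SE 0.12, adjusted p = 0.0298). The groups did not overlap, and with the replicate block this probe set was called (SE 0.09, adjusted p = 0.00545 by limma), while the brightest was not.

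The CHX changes were of similar size with and without IFN for most members. In IFNα cells only Klf6 rose by the unblocked test and none fell, beside 5.54% and 6.31% of all probe sets, and with the block Klf2 and Klf6 rose and Klf13 fell, beside 8.47% and 9.25%. In IFNγ cells only Klf6 rose and none fell, beside 4.90% and 9.14% (1360 and 2539, or 1899 and 1446 with median centring), and with the block 5 genes rose (Klf2, Klf4, Klf6, Klf7 and Klf10) and Klf13 fell, beside 7.43% and 13.1%. The medians over the 9 genes were 0.26 in IFNα and 0.38 in IFNγ cells, beside -0.01 and 0.03 over all probe sets. Whether the CHX change differed between IFN and mock cells was tested as an interaction, which called no member for IFNα (0.187% of all probe sets called) and none for IFNγ (0.241%). At an unadjusted p under 0.05 the count was 0 for IFNα and 1 for IFNγ, and the largest, for Klf4 with IFNγ, was 0.69 with a 95% interval from 0.18 to 1.20 (adjusted p = 0.400).

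**Figure D4:**
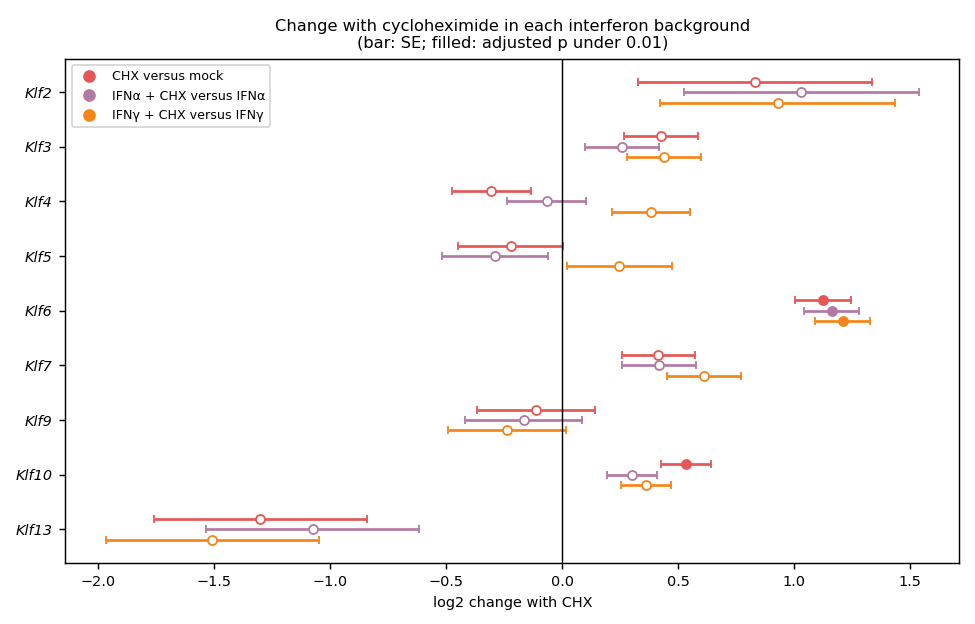
Points give the log2 change with CHX (horizontal axis) of the brightest probe set of each gene, in mock (red), IFNα (purple) and IFNγ cells (orange), with the SE as the bar. Filled points have an adjusted p under 0.01 without the replicate block. Klf6 lies between 1.13 and 1.21 in all 3 and Klf13 between -1.51 and -1.07, while Klf4 lies at -0.30 in mock and 0.38 in IFNγ cells.

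IFN by itself moved no member past the threshold in the fit without the replicate block. After IFNα 0 of 9 genes were called by limma in that fit, beside 0.569% of all probe sets. Without the block 0 had an unadjusted p under 0.05. The differences ranged from -0.18 for Klf6 to 0.26 for Klf5. Same-numbered arrays were treated as paired for IFNα against mock, and with the block 0 were again called, beside 217 of all probe sets. Klf5 then had an SE of 0.10 (adjusted p = 0.453 by limma). Klf10 differed by 0.20 (SE 0.08, adjusted p = 0.468). Unadjusted p values with the block are not given here. After IFNγ 0 of 9 were called without the block, beside 2.12% of all probe sets. In that fit 2 had an unadjusted p under 0.05, Klf4 and Klf5. The comparisons of the 2 IFNs with mock share the mock arrays.

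Klf4 was lower on every IFNγ array than on any mock array. IFNγ arrays read 8416, 8063 and 5814.5, against 11631, 11799 and 9625 in mock and 11499, 11289 and 9142 after IFNα. The difference from mock was -0.58 (SE 0.17, 95% interval from -0.94 to -0.22), with an adjusted p of 0.0906 by limma. With the replicate block it was called (adjusted p = 0.00259 by limma), although pairing was not shown for this comparison. The second Klf4 probe set read 2188, 1732 and 1247 after IFNγ and 3909.5, 2859 and 2644 in mock cells, a difference of -0.88 (SE 0.24, adjusted p = 0.0586). With CHX present the IFNγ arrays of the brighter probe set, at 8964, 11596 and 8434, overlapped those of CHX alone, and the difference was 0.11 with an interval from -0.25 to 0.47.

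By its brightest probe set and without the replicate block, Klf5 was the one member called for an IFN, and only with CHX. It read 5232, 5094 and 3407 with IFNγ and CHX, against 2545, 2421 and 1691 with CHX alone, and rose by 1.04 (SE 0.23, 2.06-fold, adjusted p = 0.00983 by limma), beside 4.34% of all probe sets called in that comparison. The groups did not overlap, and the differences within replicate numbers were 1.04, 1.07 and 1.01. With the replicate block the adjusted p was 1.62e-05, beside 6.82% of all probe sets called. Without the block the call was close to the threshold, and it was made in only 2 of 18 fits with an array left out, those without mock replicate 1 or without IFNγ + CHX replicate 3, with adjusted p values up to 0.0546 in the others. Without CHX, Klf5 read 4552, 3666 and 3256 after IFNγ against 3345, 2307 and 2141 in mock cells. That difference of 0.57 (SE 0.23) was not called without the block (adjusted p = 0.308). With the replicate block it was called (adjusted p = 0.00423 by limma), although pairing was not shown for IFNγ against mock. Tested as an interaction, the IFNγ response with CHX exceeded that without it by 0.47, with an interval from -0.22 to 1.16, and an adjusted p of 0.861, so that unequal responses were not shown. The other Klf5 probe sets, near intensities of 9 and from 122.5 to 352, were not called.

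The brightest probe sets of the other members gave no call for IFN in the presence of CHX. For IFNα with CHX against CHX 0 of 9 were called by limma without the replicate block, beside 0.961% of all probe sets. In that fit 0 had an unadjusted p under 0.05. With the block 0 were again called, beside 315 of all probe sets. All 6 Klf3 probe sets read lower on average with IFNγ and CHX than with CHX, by -1.05 to -0.16. The largest of these differences was in the second brightest, at 463, 513.9 and 298 with IFNγ and CHX against 1019, 636 and 977 with CHX (-1.05, SE 0.24, adjusted p = 0.0146). The mean of the 6 Klf3 probe sets was called, at -0.53 against CHX (SE 0.10, adjusted p = 0.00457 by limma) and at -0.48 against IFNα with CHX (adjusted p = 0.00929). Without CHX the 6 probe sets likewise read lower after IFNγ than in mock cells, by -0.47 to -0.17, none called without the replicate block. The dimmer Klf13 probe set read 21.3, 65.1 and 23.2 with IFNγ and CHX against 66.2, 65.8 and 72.5 with CHX and differed by -1.10 (SE 0.35, adjusted p = 0.0810). Neither this Klf13 probe set nor the second brightest of Klf3 was called against CHX, and in both the groups did not overlap.

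The 2 IFNs were also set against each other. IFNγ against IFNα called 0 of 9 members by limma, beside 1.93% of all probe sets, with 3 at an unadjusted p under 0.05. The widest difference was that of Klf4, at -0.53 (adjusted p = 0.169), followed by Klf3 at -0.47 (adjusted p = 0.210), and for both genes every IFNγ array lay below every IFNα array. In the presence of CHX the same comparison called 0 of 9, beside 4.00% of all probe sets, with 2 at an unadjusted p under 0.05. Klf5 was higher with IFNγ by 0.85 (SE 0.23, adjusted p = 0.0352), with arrays of 5232, 5094 and 3407 against 2899, 2468 and 2152.5.

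**Figure D5:**
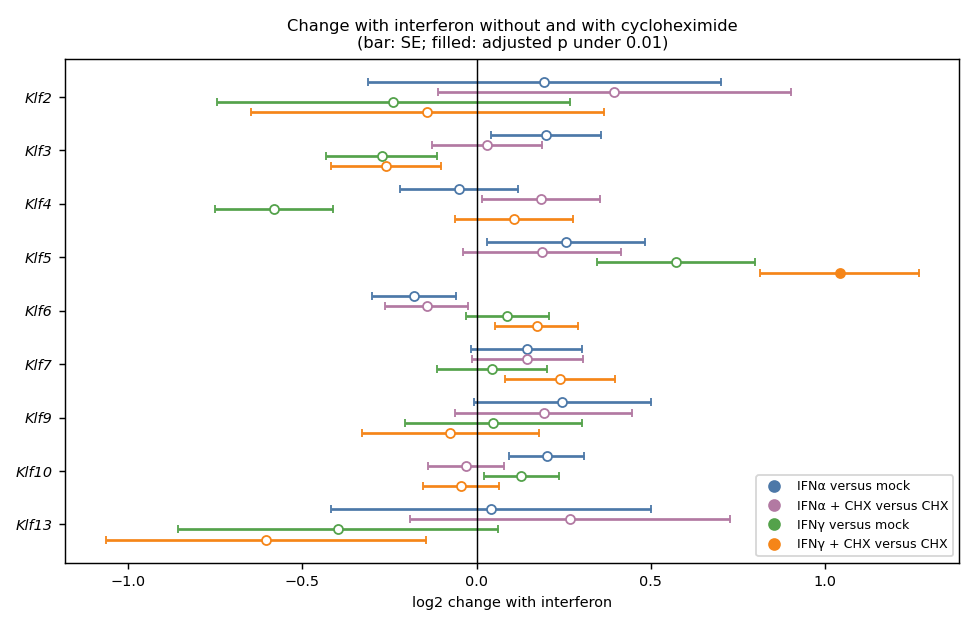
Points give the log2 change with IFN (horizontal axis) of the brightest probe set of each gene, for IFNα without (blue) and with CHX (purple) and for IFNγ without (green) and with CHX (orange), with the SE as the bar. Comparisons without CHX share the mock arrays and those with CHX share the CHX arrays. The single filled point, with an adjusted p under 0.01 without the replicate block, is Klf5 with IFNγ and CHX at 1.04. Klf4 with IFNγ alone lies at -0.58.

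Genes with a profile most like that of a called member were looked for among 4214 or 4215 genes whose treatment means spanned at least 1 on the log2 scale. The genes most like Klf6 were Nabp1, which encodes a subunit of a single-stranded DNA binding complex, Ice2 of the little elongation complex, and Nfkbiz, an atypical member of the IκB family, each with a Pearson correlation of 0.98 over the 18 arrays. Klf10 was most like Tle4, a Groucho-type corepressor, at 0.96, and Zfp697 and Ap4b1, both at 0.94. Klf5 was most like Noc4l at 0.95, Hspa2 at 0.945 and Lrp10 at 0.94. The arrays of a treatment share that treatment, so these values describe likeness over 6 treatments more than over 18 independent points.

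Other genes of the family, its regulators, its partners and its targets were read from lists chosen with earlier results of these data known. Of all probe sets, 3.92% rose and 7.02% fell with CHX alone, 5.54% and 6.31% in IFNα cells, and 4.90% and 9.14% in IFNγ cells. The counts of every list below stand beside these shares. Of 16 other Klf and Sp genes 8 were bright enough to be tested, and with CHX alone none rose and 1 fell. Klf16, a Sin3-binding relative of Klf9 and Klf13, read 641, 456 and 404 in mock cells and 63.5, 89.5 and 62.7 with CHX, a change of -2.79 on the log2 scale (SE 0.31, adjusted p = 2.64e-05 by limma). The change was -2.86 in IFNα cells and -3.24 in IFNγ cells, both called, where the CHX arrays read 86.3, 70.7 and 80.3 and 50.3, 64.6 and 23. In IFNα cells the list again gave 0 rises and 1 fall, and in IFNγ cells 1 of each. The median over the 8 genes was 0.02, beside 0.04 over all probe sets.

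Of 15 tested upstream regulators 2 rose with CHX alone and none fell, with a median of -0.04. They were Nr3c1, the glucocorticoid receptor, by 0.78 (adjusted p = 0.00112) and the ternary complex factor Elk3, a partner of serum response factor, by 0.58 (adjusted p = 0.00825). The counts were 2 rises and 0 falls in IFNα cells and 3 rises and 1 fall in IFNγ cells. Elk3 was not among those 3 rises. In IFNγ cells it read 1294, 1281 and 1292 without CHX and 1287, 1485 and 1330 with it, and the groups overlapped. With IFNγ and CHX all its arrays lay below those of CHX alone, at 3009, 2733.5 and 2340. Of 18 tested cofactors and ubiquitin ligases none rose and 4 fell, with a median of -0.36. These were Sin3a, the corepressor scaffold of Klf9, Klf10 and Klf13, by -1.03 (adjusted p = 3.28e-04), the acetyltransferase Kat2b by -0.80, the ubiquitin ligase Siah1a by -0.74 and the Klf3 partner Ctbp2 by -0.57. Siah1a was called in all 3 comparisons with CHX and Sin3a was called in cells without IFN, with changes of -0.62 in IFNα cells (adjusted p = 0.0110) and -0.53 in IFNγ cells (adjusted p = 0.0234). Its interactions with IFN were not called (adjusted p = 1.00 and 0.594). The list gave 1 rise and 1 fall, that of Siah1a, in IFNα cells and 0 rises and 4 falls in IFNγ cells. Kat2b read 356, 345 and 332 in IFNγ cells and 332.5, 298 and 367 in IFNγ cells with CHX, groups that overlapped.

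Of 14 tested genes described as Klf targets 1 rose and 4 fell with CHX alone, with a median of -0.67. Tagln, a smooth muscle actin-binding protein repressed by Klf4, read 906, 796.5 and 937 in mock cells and 3157, 3389 and 2941 with CHX, a rise of 1.85 (SE 0.17, adjusted p = 4.82e-06 by limma). Thbd, the anticoagulant thrombomodulin and a Klf2 target in endothelium, read 6366, 6563 and 5555 in mock cells and 1337, 1020.2 and 722 with CHX, and fell by 2.63 (adjusted p = 5.27e-06). The cyclin gene Ccnd2 changed by -1.66 and the cell cycle inhibitor gene Cdkn1a by -0.91 (adjusted p = 0.00994). In IFNα and in IFNγ cells the list again gave 1 rise and 4 falls. The listed targets have many other regulators, and whether any member had a part in their changes was not tested.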

How the data were processed

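Newly transcribed RNA of NIH-3T3 cells was measured on 18 Affymetrix mouse genome arrays, 3 for each of 6 treatments. For every probe set the authors deposited its linear intensity on each array. The paper's methods name gc-RMA for this step, whereas the submitters' processing notes name Affymetrix Expression Console without a version. No probe-level data were processed here. The arrays were used as the authors scaled them, and their number limits the precision.

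The log2 of the deposited intensity was fitted with limma 3.58.1 in R 4.3.3 to a model of the 6 treatments over all 18 arrays, with 12 residual and 2.05 prior degrees of freedom. Of 45101 probe sets, 64 controls were left out, and 27773 were kept, about as many as the study called present, by their highest value on any array (8.5 or above). For each of 11 contrasts the Benjamini-Hochberg adjustment ran over all of these, and calls were made at an adjusted p under 0.01. Probe sets were named by the platform annotation, in which 34945 have 1 gene symbol, 932 several and 9160 none. A gene stands as its probe set with the highest mean. Comparisons with the same control arrays are not independent. The paper calls the replicates biological, and p-values measure the spread between these samples.

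Replicate numbers came from the sample titles, which name no shared batch. Deviations of same-numbered arrays from their treatment means correlated above 0.1 in all 3 pairs for each comparison of CHX with its control, for IFNα against mock and for each IFN with CHX against CHX (0.23 to 0.78), so these were treated as paired. In IFNγ against mock, IFNγ against IFNα and the same with CHX at least 1 pair did not (lowest -0.35). Over all treatments 38 of 45 same-numbered pairs exceeded 0.1, and 25 of 90 pairs of unlike number.

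Alternatives were log2(value + 16), no filter, quantile normalization, median centring, the replicate block, only the arrays compared, a 2-fold minimum, the mean of a gene's probe sets and leaving out each array. The members and the gene lists were chosen with earlier results of these data known. From each list, up to 4 called genes with the largest change after CHX were named, beside targets of the treatments. For each called member the 3 genes with the highest correlation were named. Promoter sequences are those of RefSeq for GRCm38.p6, searched on both strands for 11 motifs, 1 of which is not reported here. The fit without the replicate block was tested on simulated data with independent noise on each array and no effect of replicate number. The replicate block was not tested in this way.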

Additional observations from a re-analysis of the deposited data

How the results depend on the processing

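No direction of a member reversed under any alternative in which it was called, and of the recomputed values for member probe sets 2725 kept both direction and side of the threshold, 77 lost a call, 22 gained one and 100 uncalled values changed sign. With CHX alone the count of 2 members called became 1 with median centring, with only the arrays compared and with a 2-fold minimum, 4 with the replicate block and 3 with the mean of a gene's probe sets (Klf3, Klf6 and Klf10), and lay between 1 and 2 with each array left out. In IFNα cells the count of 1 became 3 with the replicate block. In IFNγ cells the count of 1 became 2 with median centring, 6 with the replicate block and 3 with the mean of a gene's probe sets, and lay between 1 and 2 with an array left out. For IFNγ with CHX against CHX the count of 1, Klf5, became 0 with log2(value + 16), with no filter, with median centring and with only the arrays compared, and 2 with the mean of probe sets (Klf3 and Klf5), and lay between 0 and 1 with an array left out. Without pairing being shown, the replicate block took the count from 0 to 2 for IFNγ against mock, beside 935 of all 27773 probe sets called. These were Klf4 (-0.58, adjusted p = 0.00259) and Klf5 (0.57, adjusted p = 0.00423, both by limma). The block took the count from 0 to 1 for IFNγ against IFNα, beside 774 of all probe sets. For the same with CHX it went from 0 to 1, beside 1727, and the mean of probe sets gave 2 (Klf3 and Klf5). The block changed the count of members called in no other comparison. Median centring moved the median change of all probe sets from 0.04 to 0.15 with CHX alone, from 0.03 to 0.23 with CHX in IFNγ cells and to 0.15 for IFNγ against IFNα with CHX, so CHX changes are relative to the authors' scaling. Where these counts changed, the cause was not tested. Arrays have no read depth, and probe sets near an intensity of 10 give little room to measure a fall.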
